A study of Danio rerio with 16 samples.

Results

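The zebrafish microRNAs (miRNAs, short RNAs that lower the output of target messenger RNAs) dre-miR-15a, dre-miR-15b, dre-miR-16a, dre-miR-16b, dre-miR-16c, dre-miR-457a and dre-miR-457b, written below without the species prefix, form one seed family, which means that they pair with targets through the same stretch near the 5′ end. They were taken by name from the zebrafish miRNAs on the array, 7 of 245, and opposite (star) arms were not counted as members. All 7 were among the 178 miRNAs that were detected and tested, and each was well above background on 4 of 4 arrays in every group with 0 saturated spots. Whole wild-type embryos of the TL strain were kept in ethanol, the vehicle, or in VPA (valproic acid, a teratogenic epilepsy drug and inhibitor of histone deacetylases) from 4 hours post-fertilization (hpf). Total RNA was taken at 48 or at 96 hpf, which gave 4 groups (vehicle and VPA at each age) of 4 arrays, 16 altogether, with no dose stated in the labels. Embryos at 96 hpf had been exposed for longer than those at 48 hpf.

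Members of this family are best known in mammals for repressing cyclins and other drivers of the cell cycle and the survival factor BCL2, and human miR-15a and miR-16 are lost in many chronic lymphocytic leukaemias. In the frog, miR-15 and miR-16 also limit the receptor through which Nodal ligands act in the early embryo. The genes mostly lie as pairs, a miR-15 type and a miR-16 type hairpin in 1 transcript, so that members of a pair start from a common precursor and can still differ in processing and decay.

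What the arrays measured was set by the probes, so the brighter of the 2 probes of each member is shown first, 5′ to 3′, as the array files give it. Among the miR-16 and miR-457 probes, capitals mark the bases that differ from the miR-16b probe, and in the miR-15b probe those that differ from the miR-15a probe.
miR-16b: ctccaatatttacgtgct
miR-16a: cAccaatatttacgtgct
miR-16c: ctccaatatttacAtgctgc
miR-457b: ctccaGtatttaTgtgctg
miR-457a: TGccaatattGaTgtgct
miR-15a: cacaaaccattctgtgc
miR-15b: TacaaaccatGAtgtgct
Positions are counted from 1 at the 5′ end of the probe. The miR-16a probe differs from that of miR-16b by T2A alone, and the miR-16c probe over the 18 bases compared by G14A. The miR-457b probe carries A6G and C13T, and the miR-457a probe C1T, T2G, T11G and C13T. The miR-15b probe differs from the miR-15a probe by C1T, T11G and C12A. All 7 probes have the letters TGC at positions 15 to 17, and members are told apart by the bases outside them.

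The array also carries probes for the pufferfish miRNAs miR-15a and miR-15b. These probes were singled out after their values were seen. The pufferfish miR-15a probe of 16 bases differs from the zebrafish miR-15a probe of equal length by T13C, and the pufferfish miR-15b probe of 17 bases from its zebrafish counterpart by T15C. Their median spot intensities over the 16 arrays ran from -20.7 to 5.46 and from -20.4 to -3.12, with 0% of spots well above background on any array. The zebrafish probes of the same lengths gave 44.8 to 569 and 349 to 2600, and most of their spots were well above background on 11 and on 16 of the 16 arrays. Since probes differ in their response, these values do not measure how far a mismatch lowers the signal. No probe pair of this kind was used for miR-16a, miR-16b and miR-16c, whose brighter probes differ by 1 base, so that signal shared between these members cannot be told apart from their own.

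On the build of the array design (danRer6, Zv8), the miR-15a probe matches chr1:46862758-46862773 and the miR-16b probe chr1:46862539-46862555, 203 bases apart and both listed in descending order. The miR-15b probe matches chr7:26124988-26125004 and the miR-457a probe chr7:26125512-26125528, 508 bases apart. The miR-16a probe matches chr15:1612512-1612528, 155 bases from miR-15c, and the miR-457b probe chr14:32794548-32794565, in descending order. The array files list no place for miR-16c. The listed spans are 1 base shorter than the probes. In the RefSeq annotation of another assembly (GRCz12tu), used for names and neighbours only, all 7 members were found, at 8 loci. There miR-15a comes from 2 genes, mir15a-1, which overlaps a long noncoding RNA, beside mir16b, and mir15a-2, which overlaps trim13, beside mir16c. In the same annotation dre-mir-15b lies beside mir457a, mir16a, which overlaps smc4 and kpna4, beside mir15c, and mir457b between hprt1 and pabir2.

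Before the comparisons, the arrays themselves differed in brightness. The 75th percentile of spot intensity was 897 to 1220 in vehicle and 507 to 2356 in VPA arrays at 48 hpf, and 1956 to 2406 and 1249 to 6179 at 96 hpf. Every VPA array lay outside the range of the vehicle arrays of its age: at 48 hpf 3 were dimmer and replicate 4 brighter, and at 96 hpf replicates 1 and 2 were dimmer and replicates 3 and 4 brighter. Intensities were therefore divided by that percentile on each array, and levels are given as log2 of this scaled intensity. Vehicle and VPA arrays of 1 age shared a slide, in different columns, so that column and treatment cannot be told apart. For the same reason of probe response, levels are compared between groups and not between members. In whole-embryo RNA, fewer cells of a type and less RNA per cell cannot be told apart.

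**Figure D1:**
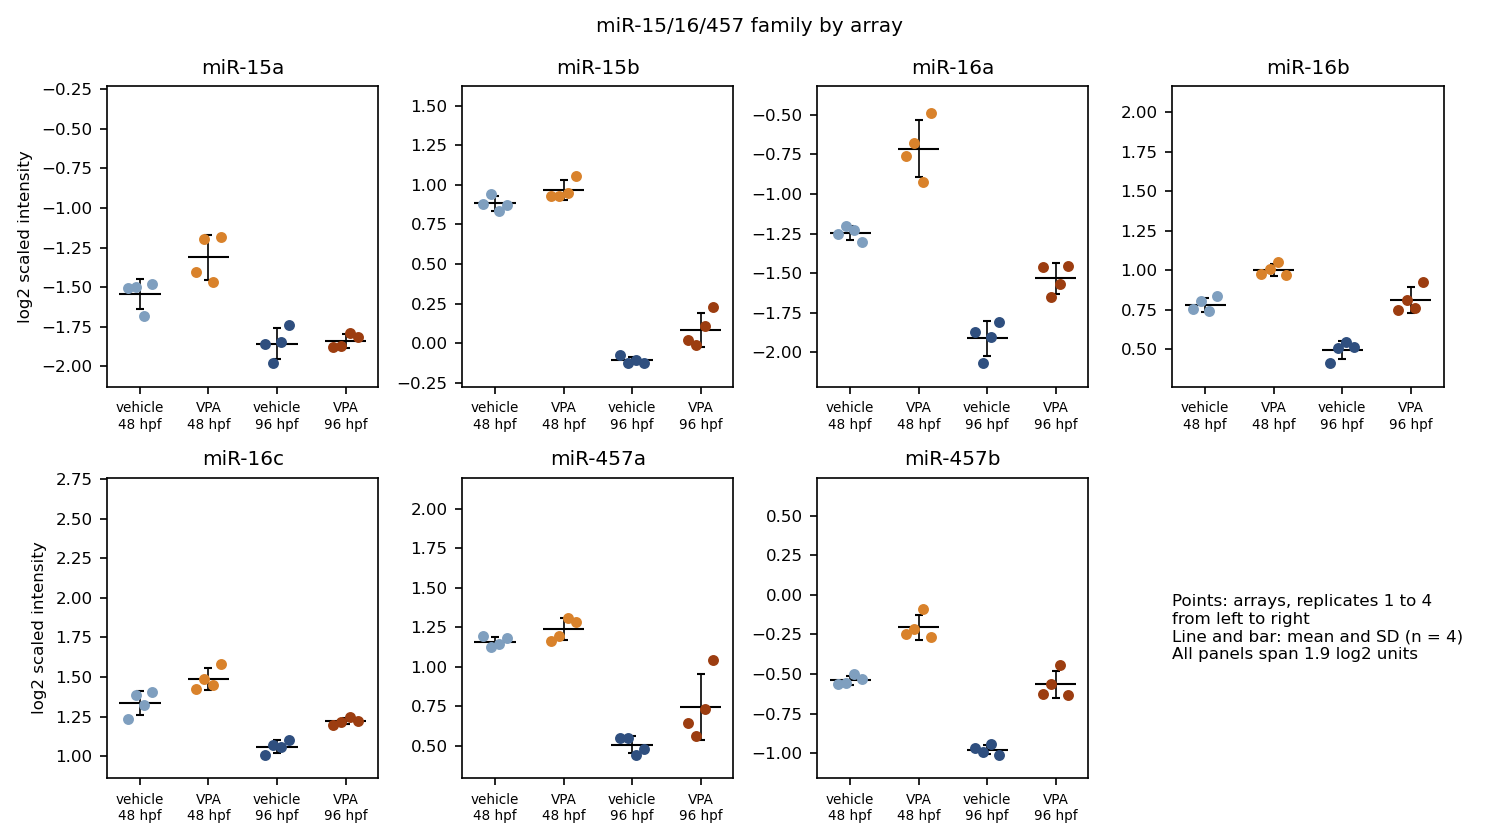
Log2 scaled intensity of each family member on each of the 16 arrays, by group, with the mean and SD of 4 arrays. Each panel spans the same number of log2 units. The 48 hpf VPA group is the highest in every panel, and the 96 hpf vehicle group the lowest.

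The first comparison asked how the family differed in VPA-exposed embryos at 48 hpf. Of the 7 members 5 were higher and 0 lower (limma, adjusted p under 0.05), beside 16.3% higher and 12.9% lower of all 178 tested miRNAs. The treatments parted without overlap for the same number of members, 5, beside 23.0% of all tested miRNAs that parted in this direction. The median change of the members was 0.22 on the log2 scale and that of all tested miRNAs 0. In intensities without scaling these medians were -0.22 and -0.31, and 0 members and 0 of all tested miRNAs passed. The scaled changes of the members ran from 0.08 to 0.53.

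miR-16a rose the most. Its log2 level was -1.25, -1.20, -1.23 and -1.30 on the vehicle arrays and -0.76, -0.68, -0.92 and -0.49 on the VPA arrays, in order of replicate number. All VPA arrays lay above all vehicle arrays, by at least 0.28, and VPA replicate 4 was the highest. The change was 0.53 ± 0.08 (SE, n = 4 against 4), 1.45-fold, with an adjusted p of 0.000254 (limma, Benjamini-Hochberg over 178 miRNAs). It was the largest rise of all tested miRNAs. The SE of this change and of those below rests on 1 spread for each miRNA, shared by all 4 groups. For miR-16a at 48 hpf the SD was 0.04 in vehicle and 0.18 in VPA embryos (n = 4 each).

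miR-16b, whose probe differs from that of miR-16a by 1 base, moved less. Its levels were 0.75, 0.80, 0.74 and 0.83 in vehicle and 0.98, 1.01, 1.05 and 0.97 in VPA embryos, with no overlap. The change was 0.22 ± 0.05, 1.16-fold (limma, adjusted p = 0.00392), and all 4 VPA arrays lay above the vehicle mean. The call of miR-16b was lost with the median of the tested miRNAs set to 0 on each array (0.17, limma, adjusted p = 0.158). It was also lost with normexp background correction (0.04, limma, adjusted p = 0.775), and without scaling the change was -0.22. With the 3 dimmer VPA arrays left out it was 0.19, in a fit where the 1 remaining VPA array is taken to vary like the other groups.

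miR-16c, the partner of the second miR-15a gene, stood at 1.23, 1.39, 1.32 and 1.40 in vehicle and at 1.42, 1.49, 1.45 and 1.58 in VPA embryos. The groups were parted by only 0.02. The change of 0.15 ± 0.05, 1.11-fold, passed with an adjusted p of 0.0329 (limma). The call was lost without any of 4 arrays, vehicle replicate 1 or 3 or VPA replicate 2 or 4, with adjusted p between 0.0682 and 0.102.

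miR-15a, whose genes lie beside those of miR-16b and miR-16c, had levels of -1.50, -1.50, -1.68 and -1.48 in vehicle and of -1.40, -1.20, -1.46 and -1.18 in VPA embryos. Vehicle replicate 3 lay below the rest of its group, and the nearest arrays of the 2 groups were 0.01 apart. The change was 0.23 ± 0.07, 1.17-fold (limma, adjusted p = 0.0273). Without vehicle replicate 3 it was 0.18 (adjusted p = 0.0981), and without VPA replicate 2 or 4 it was 0.19 in each case (adjusted p = 0.0852 and 0.0824).

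miR-457b, which has no other family member beside it in the annotation, stood at -0.56, -0.56, -0.50 and -0.53 in vehicle and at -0.25, -0.22, -0.09 and -0.27 in VPA embryos. The groups were 0.24 apart. The change was 0.33 ± 0.05, 1.26-fold (limma, adjusted p = 0.000254).

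The pair from chromosome 7 did not pass at this age. miR-15b gave 0.88, 0.95, 0.83 and 0.87 in vehicle and 0.93, 0.93, 0.95 and 1.06 in VPA embryos, a change of 0.08 ± 0.05 with a 95% confidence interval from -0.03 to 0.20 (limma, adjusted p = 0.252). miR-457a gave 1.19, 1.12, 1.14 and 1.18 in vehicle and 1.16, 1.19, 1.31 and 1.28 in VPA embryos, a change of 0.08 ± 0.08 with an interval from -0.09 to 0.25 (limma, adjusted p = 0.491). The groups overlapped for both, and the intervals do not reach the rise of miR-16a.

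**Figure D2:**
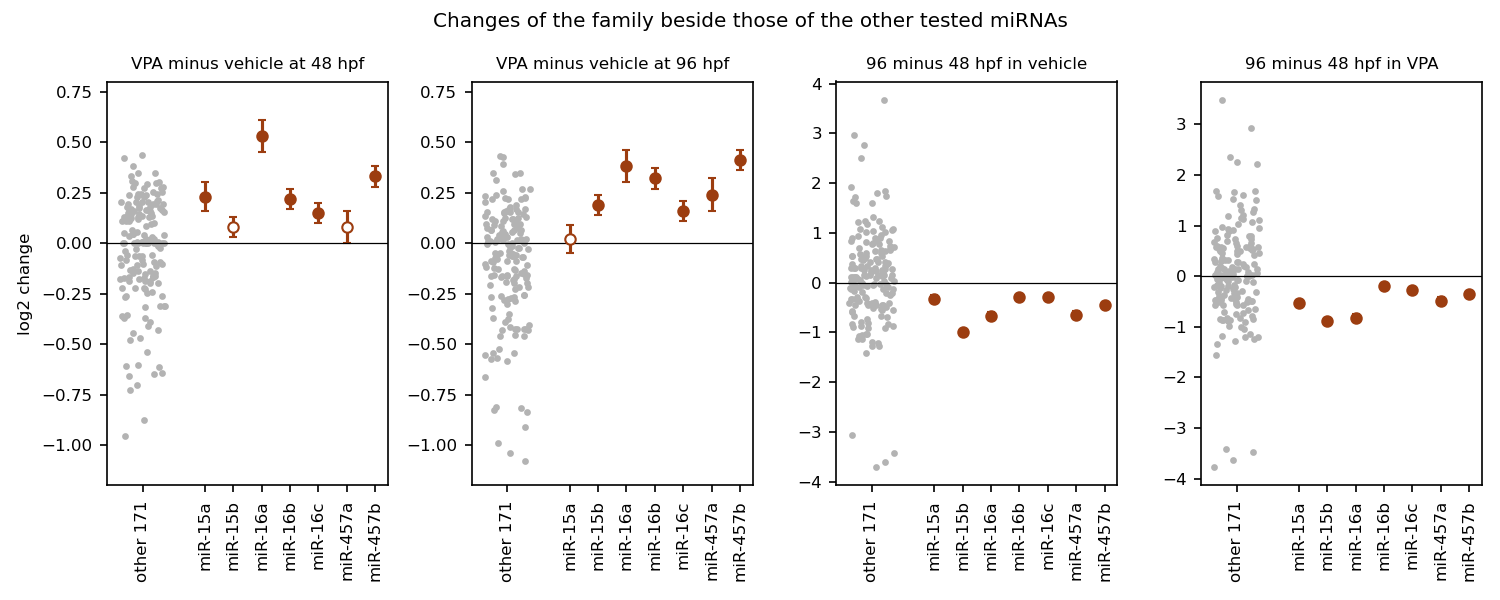
Log2 changes of the 7 members (red, with SE) beside those of the other 171 tested miRNAs (grey) for VPA minus vehicle at each age and for 96 minus 48 hpf in each treatment; the left and right pairs of panels have different vertical scales. miR-190b, at -1.54 for VPA at 48 hpf, lies below the axis of its panel and is not visible there. Filled symbols passed an adjusted p of 0.05 and open symbols did not. Members run from 0.08 to 0.53 at 48 hpf and from 0.02 to 0.41 at 96 hpf for VPA, and all lie below 0 for age in these scaled intensities.

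At 96 hpf the same comparison found 6 of 7 members higher and 0 lower (limma, adjusted p under 0.05), beside 14.6% higher and 18.5% lower of all tested miRNAs. The same number, 6, did not overlap between the groups, beside 14.6% of all tested miRNAs in this direction. With the replicate number as a block, 5 members passed, beside 25 of all 178 miRNAs that were higher. The median change of the members was 0.24 and that of all tested miRNAs -0.03. miR-16a, miR-16b, miR-16c and miR-457b passed at both ages, 4 of the 12 miRNAs that were higher at both, which are 6.74% of those tested.

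miR-457b had the largest change of the family at this age. Its levels were -0.97, -0.99, -0.94 and -1.01 in vehicle and -0.62, -0.56, -0.44 and -0.63 in VPA embryos, with the groups 0.31 apart. The change was 0.41 ± 0.05, 1.33-fold (limma, adjusted p = 2.51e-05).

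miR-16a stood at -1.87, -2.07, -1.90 and -1.81 in vehicle and at -1.46, -1.65, -1.57 and -1.45 in VPA embryos, again with no overlap. The change was 0.38 ± 0.08, 1.30-fold (limma, adjusted p = 0.0023). miR-16b stood at 0.41, 0.51, 0.55 and 0.51 in vehicle and at 0.75, 0.81, 0.76 and 0.92 in VPA embryos. Its groups were 0.20 apart, and the change was 0.32 ± 0.05, 1.25-fold (limma, adjusted p = 0.000138).

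The remaining 3 rises were smaller or rested on fewer arrays. miR-16c went from 1.01, 1.07, 1.06 and 1.10 in vehicle to 1.20, 1.22, 1.25 and 1.22 in VPA embryos, a change of 0.16 ± 0.05, 1.12-fold, with no overlap (limma, adjusted p = 0.0221). Its call was lost without vehicle replicate 1 (adjusted p = 0.0584) or 3 (adjusted p = 0.0516). miR-15b went from -0.08, -0.13, -0.11 and -0.12 to 0.02, -0.01, 0.11 and 0.23, a change of 0.19 ± 0.05, 1.14-fold, with the groups 0.06 apart (limma, adjusted p = 0.0135). VPA replicates 3 and 4, the brighter arrays, were its highest, and without both the change was 0.11 (adjusted p = 0.0581).

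miR-457a, the partner of miR-15b, stood at 0.55, 0.55, 0.45 and 0.48 in vehicle and at 0.64, 0.56, 0.73 and 1.05 in VPA embryos. The groups were 0.01 apart, and VPA replicate 4, the brightest of all arrays, was far above the other VPA arrays. The change of 0.24 ± 0.08, 1.18-fold, passed with an adjusted p of 0.0329 (limma). It missed the threshold with the replicate number as a block (adjusted p = 0.0662) and without vehicle replicate 3 or 4 (adjusted p = 0.0897 and 0.0771). Without VPA replicate 4 the change was 0.14, with an adjusted p of 0.0441, and without both brighter VPA arrays it was 0.10 (adjusted p = 0.17).

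miR-15a was the exception at 96 hpf. Its levels were -1.86, -1.98, -1.85 and -1.74 in vehicle and -1.88, -1.87, -1.79 and -1.82 in VPA embryos, so that the VPA arrays lay inside the vehicle range. The change was 0.02 ± 0.07, with a 95% confidence interval from -0.14 to 0.17 (limma, adjusted p = 0.89), which leaves out the 0.32 of its partner miR-16b. With quantile normalization, in contrast, miR-15a rose by 0.20 (limma, adjusted p = 0.0366).

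Whether the VPA effect differed between the ages was tested directly. For 0 of 7 members did the effect at 96 hpf differ from that at 48 hpf (limma, adjusted p under 0.05), beside 12.4% of all tested miRNAs. At an unadjusted p under 0.05 the counts were 0 of 7 members and 54 of all 178 miRNAs. The difference of effects, 96 minus 48 hpf, was farthest from 0 for miR-15a, at -0.21 ± 0.10 with an interval from -0.43 to 0.01 (limma, adjusted p = 0.183). It was 0.16 for miR-457a and -0.15 for miR-16a. The passing of miR-15a at 48 hpf only, and of miR-15b and miR-457a at 96 hpf only, is thus not shown to be a difference between the ages.

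**Figure D3:**
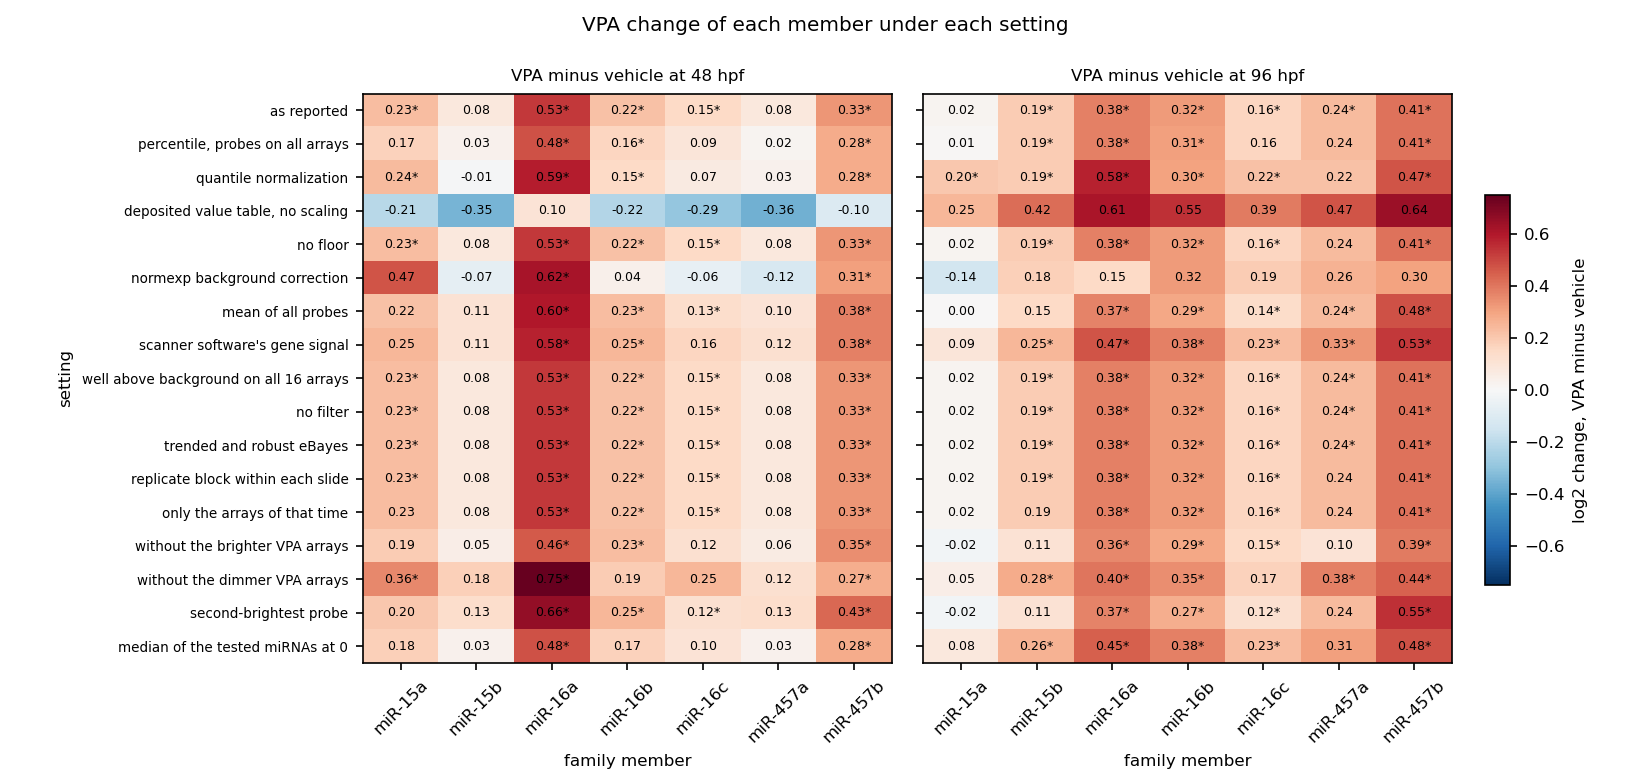
Log2 change, VPA minus vehicle, of each member (columns) at 48 hpf (left) and 96 hpf (right) with the processing as reported (top) and under 16 alternatives, with red above 0, blue below 0, and a star for an adjusted p under 0.05. miR-16a and miR-457b carry stars in all but the unscaled row at 48 hpf and in all but the unscaled and normexp rows at 96 hpf.

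The calls of the members differed in how well they held when arrays or processing changed, which the plot of changes by setting shows. When each of the 16 arrays was left out in turn, miR-16a, miR-16b and miR-457b passed in all 16 fits at both ages. Their changes at 48 hpf then ran from 0.46 to 0.60, from 0.20 to 0.24 and from 0.30 to 0.35. Under the 16 other settings miR-16a and miR-457b each passed in 15 at 48 hpf and in 14 at 96 hpf, and miR-16b in 12 and 14. The remaining calls passed in fewer of them: miR-15a in 7 and miR-16c in 8 at 48 hpf, and miR-16c in 12, miR-15b in 10 and miR-457a in 6 at 96 hpf. With normexp background correction 2 members passed at 48 hpf and 0 at 96 hpf, where limma called 5 and 0 of all 178 miRNAs and 52 and 19 had an unadjusted p under 0.05 (3 and 2 members). Without any scaling between arrays 0 members and 0 of all 178 miRNAs passed at either age. At an unadjusted p under 0.05 it was 0 members at either age, beside 8 of all miRNAs at 48 hpf and 0 at 96 hpf. All members but miR-16a had unscaled changes below 0 at 48 hpf.

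A ratio taken within an array does not depend on the percentile that the array was divided by, though quantile normalization can change it. Each member was therefore also set against the mean of the other 6 on the same array. The level of this difference reflects the probes, and only its shift between groups is read here, as a description with no test. For miR-16a at 48 hpf it went from -1.59 ± 0.06 (SD, n = 4) in vehicle to -1.24 ± 0.16 in VPA embryos, from at most -1.54 to at least -1.46. For miR-15b at 48 hpf it went from 0.89 ± 0.04 to 0.72 ± 0.04, also without overlap. That of miR-457a at 48 hpf went from 1.21 ± 0.05 to 1.03 ± 0.08. Its groups overlapped narrowly, with the lowest vehicle array at 1.145 and the highest VPA array at 1.147. Relative to the rest of the family, miR-16a was thus higher and miR-15b lower in the VPA embryos at 48 hpf. miR-457a, with that overlap, was lower as well.

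At 96 hpf the difference of miR-15a from the other members was -1.70 ± 0.08 in vehicle, with arrays from -1.80 to -1.60, and -1.97 ± 0.05 in VPA embryos, with arrays from -2.04 to -1.93. The groups did not overlap, and in these scaled intensities VPA embryos had less miR-15a relative to the rest of the family. With quantile normalization, in contrast, the VPA change of miR-15a at 96 hpf was 0.20 and the median of the members 0.22. At 48 hpf the difference of miR-15a from the other members was -1.94 in both treatments. miR-16a shifted the other way at 96 hpf, from -1.77 ± 0.10 in vehicle to -1.61 ± 0.09 in VPA embryos, with the highest vehicle array at -1.679 and the lowest VPA array at -1.678.

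**Figure D4:**
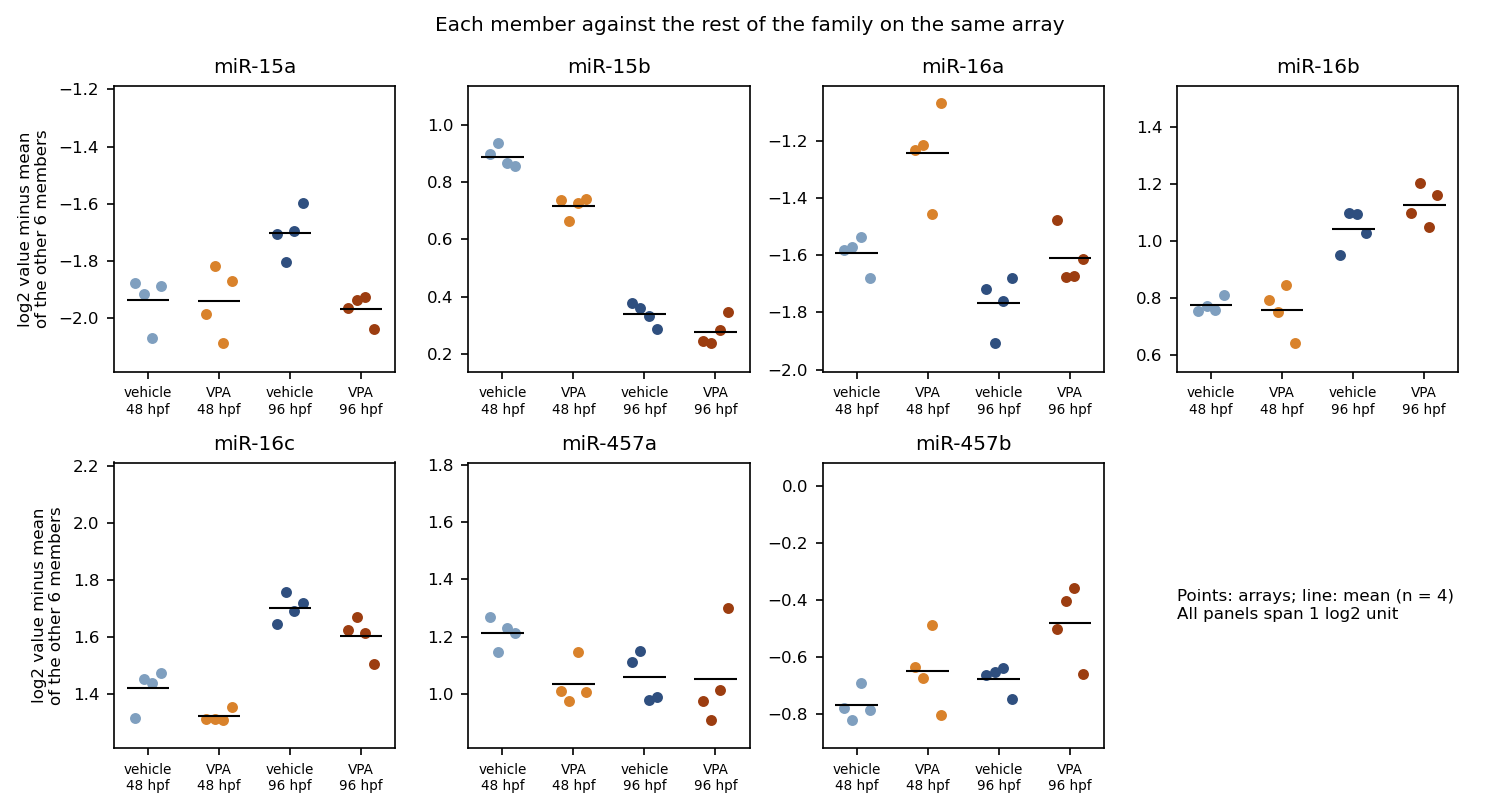
Log2 level of each member minus the mean of the other 6 members on the same array, by group, with points for arrays and lines for means of 4 arrays. Vehicle and VPA arrays part for miR-15a at 96 hpf (at least -1.80 against at most -1.93) for miR-15b at 48 hpf, and for miR-16a at 48 hpf and, narrowly (-1.679 against -1.678), at 96 hpf.

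Neighbouring members were set against each other in the same way, again with no test. At 48 hpf the log2 ratio of miR-15a to its partner miR-16b on an array was -2.32 ± 0.07 with vehicle and -2.31 ± 0.17 with VPA (SD, n = 4). At 96 hpf it was -2.35 ± 0.11 in vehicle, from -2.49 to -2.25, and -2.65 ± 0.08 in VPA embryos, from -2.74 to -2.55, with no overlap. Against its other partner, miR-16c, the 96 hpf ratio of miR-15a was -2.92 ± 0.09 with vehicle and -3.06 ± 0.03 with VPA, and these ranges overlapped. For the chromosome 7 pair the ratio of miR-15b to miR-457a was -0.28 ± 0.07 and -0.27 ± 0.06 at 48 hpf and -0.62 ± 0.05 and -0.66 ± 0.11 at 96 hpf, in vehicle and VPA embryos, so that it shifted between the ages and hardly between the treatments.

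Between 48 and 96 hpf all 7 members fell in scaled intensity, whereas most changes lay above 0 without scaling. In vehicle embryos 7 of 7 members were lower (limma, adjusted p under 0.05), beside 34.3% of all tested miRNAs that were lower. In VPA embryos 7 of 7 were lower, beside 36.0% of all tested miRNAs. The groups of the 2 ages did not overlap for any member in either treatment, beside 35.4% of all tested miRNAs in vehicle and 33.1% in VPA embryos. The median change of the members was -0.44 in vehicle and -0.49 in VPA embryos, and that of all tested miRNAs 0.11 and 0.02. All 48 hpf arrays lay on 1 slide and all 96 hpf arrays on another, so age and slide cannot be told apart. With unscaled intensities the direction turned. In VPA embryos all 7 members lay above 0 and 5 passed as higher, beside 131 of all 178 miRNAs. In vehicle embryos all but miR-15b lay above 0 and 0 passed, beside 74 of all 178 that were higher. The median of all tested miRNAs rose by 1.47 in VPA and 0.98 in vehicle embryos. The fall of miR-16b in VPA embryos was also absent with normexp (0.01) and with the scanner software's gene signal (0.03). In VPA embryos 5 members passed as lower with that gene signal, and 5 with quantile normalization, beside 49 and 60 of all 178 miRNAs. It was also 5 with the percentile over probes detected on all arrays, and 4 with normexp, beside 54 and 62 of all. miR-16c missed the threshold in 4 of 15 other settings in VPA embryos and in 3 of 15 in vehicle embryos.

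miR-15b fell the most, from 0.88 ± 0.05 to -0.11 ± 0.02 in vehicle embryos (SD, n = 4), a change of -0.99 ± 0.05 (SE), 1.99-fold lower (limma, adjusted p = 1.8e-10). In VPA embryos its change was -0.88. miR-16a changed by -0.67 ± 0.08 in vehicle and -0.82 in VPA embryos, and miR-457a by -0.65 ± 0.08 and -0.49. miR-457b changed by -0.44 ± 0.05 and -0.36, and miR-15a by -0.32 ± 0.07 and -0.53. The smallest changes were those of miR-16b, at -0.29 ± 0.05 and -0.19, and miR-16c, at -0.28 ± 0.05 and -0.27.

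Set in order, the group means ran from VPA at 48 hpf through vehicle at 48 hpf and VPA at 96 hpf to vehicle at 96 hpf for 6 of the 7 members. For miR-16b VPA at 96 hpf (0.81 ± 0.08) came just above vehicle at 48 hpf (0.78 ± 0.04), and these arrays overlapped. The same neighbours overlapped for miR-16c, at 1.34 ± 0.08 in vehicle at 48 hpf and 1.22 ± 0.02 in VPA at 96 hpf, and for miR-457b, at -0.54 ± 0.03 and -0.57 ± 0.09. For miR-15a, miR-15b, miR-16a and miR-457a they did not overlap. The VPA and vehicle groups of 48 hpf overlapped for miR-15b and miR-457a, and those of 96 hpf for miR-15a.

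The second probe of each member gave a repeat within the array, though not an independent sample. It had the same sign as the brighter probe for 7 of 7 members at 48 hpf and for 6 of 7 at 96 hpf, where miR-15a was at -0.02. The largest gap between the probes' changes was 0.12 at 48 hpf and 0.14 at 96 hpf. Fitted on the second probe, 4 members passed at 48 hpf in place of 5, and 4 at 96 hpf in place of 6. Of all 178 miRNAs, 21 were then higher at 48 hpf in place of 29, and 12 at 96 hpf in place of 26. Most spots of the second miR-15a and miR-16a probes were well above background on only 11 and 14 of 16 arrays.

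The other products of these loci were not measurable. The opposite arm miR-15a* and miR-15c, the neighbour of miR-16a, were well above background on 0 arrays of every group and were not tested. Median spot intensities of their probes ran from -30.4 to -3.52 and from -22.1 to 11.6, against 262 to 2240 for the brighter miR-16a probe. At this signal no change of either could be detected.

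The wider group that shares part of the seed, miR-103 and miR-107, which lie within pantothenate kinase genes in vertebrates and are linked to metabolism in mammals, was described beside the family. At 48 hpf 0 of 2 were higher and 2 lower, miR-103 by -0.32 ± 0.06 and miR-107 by -0.20 ± 0.07 (limma, adjusted p = 0.00172 and 0.0409), beside 12.9% of all tested miRNAs that were lower. At 96 hpf 0 of 2 passed in either direction, with changes of 0.03 and 0. With age 2 of 2 were higher in both treatments, beside 46.1% of all tested miRNAs that were higher in vehicle and 41.6% in VPA embryos. A further miRNA of this name, miR-107b, is not in this list and was looked up after the values were seen. Its difference between VPA and vehicle embryos was -0.19 ± 0.14 at 48 hpf and -0.08 ± 0.14 at 96 hpf and did not pass (limma, adjusted p = 0.323 and 0.704).

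Lists of other miRNAs tied to the cell cycle were counted in the same way. Of all tested miRNAs, 16.3% were higher and 12.9% lower with VPA at 48 hpf, and 14.6% and 18.5% at 96 hpf. With age 34.3% were lower in vehicle and 36.0% in VPA embryos. Of miR-17a, miR-20a, miR-20b and miR-93, which in mammals promote proliferation, 1 of 4 was higher with VPA at 48 hpf (miR-20b, 0.24 ± 0.07, limma adjusted p = 0.0238) and 0 at 96 hpf, and 4 of 4 were lower with age in both treatments. Of the 8 tested let-7 miRNAs, which restrain proliferation and mark later development, 0 passed with VPA at 48 hpf. At 96 hpf 2 were lower, let-7i by -0.46 ± 0.06 and let-7e by -0.17 ± 0.05 (limma, adjusted p = 1.64e-05 and 0.0111). let-7i was then at -3.22 in vehicle and -3.68 in VPA embryos, and let-7e at -3.04 and -3.22. At 48 hpf both stood at -3.87, the floor set for the signal, with 0 arrays well above background. The floor thus limits their VPA changes at 48 hpf and their rises with age. With age 7 of 8 were higher in vehicle and 8 of 8 in VPA embryos, beside the shares of 46.1% and 41.6% of all tested miRNAs. Of the 2 tested miR-34 miRNAs, which p53 induces in mammals, miR-34 was lower at both ages (-0.36 and -0.40, both ± 0.06). miR-34c was higher at 96 hpf (0.27 ± 0.08, limma, adjusted p = 0.0254). It lay near the floor there, at -3.75 in vehicle and -3.48 in VPA embryos.

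Blood cells are one tissue in which this family is well expressed in mammals, so blood markers were set beside it. Of 5 markers 4 were tested, and miR-142a-5p was not well above background. With VPA 0 of 4 passed at 48 hpf, beside 16.3% higher and 12.9% lower of all tested miRNAs. These shares were 14.6% and 18.5% at 96 hpf. At 96 hpf miR-451 of red cells was higher (0.43 ± 0.08, limma, adjusted p = 0.000525) and miR-142a-3p of white cells lower (-0.91 ± 0.17, adjusted p = 0.000658). The other red-cell marker, miR-144, lay in the opposite direction to miR-451 and did not pass (-0.46 ± 0.23, limma, adjusted p = 0.153). The other white-cell marker, miR-223, did not pass either (-0.11 ± 0.09, limma, adjusted p = 0.405). At 96 hpf the 2 red-cell markers thus lay in opposite directions, and both white-cell markers below 0, of which only miR-142a-3p passed. A change in the share of either cell type was not tested. The summed scaled intensity of the 5 markers ran from 3.81 to 4.15 in vehicle and from 3.45 to 4.09 in VPA arrays at 48 hpf. At 96 hpf it ran from 2.06 to 2.20 and from 1.96 to 2.58. miR-451 weighed most in this sum, with group means of the log2 level from 0.40 to 1.67. Those of the other blood markers were -1.69 or lower, so the sum says little of miR-142a-3p. Among 12 markers of other tissues, miR-122 of the liver was lower with VPA at both ages (-0.54 ± 0.07 and -0.37 ± 0.07, limma, adjusted p = 0.000106 and 0.00102). Its signal at 48 hpf was low, at -2.41 in vehicle and -2.95 in VPA embryos, and well above background on only 2 of 4 VPA arrays. At 48 hpf miR-124 of neurons was lower (-0.47 ± 0.08, adjusted p = 0.000314) and miR-206 of muscle higher (0.42 ± 0.15, adjusted p = 0.0486). The other markers of the early embryo, brain, muscle and skin did not pass at either age. The part of these tissues in the changes of the family was not tested.

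The miRNAs whose levels were most like the mean of the family over the 16 arrays were miR-10a (Pearson r = 0.975), miR-19c (0.974), miR-18c (0.969), miR-19d (0.963) and miR-10c (0.962). The arrays share age and treatment groups, so these values describe the likeness and are given no p. With the mean of each age taken out, r was 0.939 for miR-10a and 0.788 to 0.856 for the others. The miR-10 miRNAs lie in Hox clusters, and miR-18 and miR-19 miRNAs in clusters of the miR-17 to miR-92 kind. As a description of miRNAs chosen for this likeness, their log2 differences between VPA and vehicle embryos at 48 and 96 hpf were 0.27 and 0.27 for miR-10a, 0.38 and 0.22 for miR-19c, 0.35 and 0.34 for miR-18c, 0.19 and 0.23 for miR-19d, and 0.15 and 0.19 for miR-10c.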

How the data were processed

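Total RNA of 16 samples was hybridized by the authors to 1-colour Agilent miRNA arrays. The deposited scanner files give spot intensity, background-subtracted but with no normalization from array to array. Per the file headers, the software was Agilent Feature Extraction 9.5.3.1 (9.5 per the submitters' processing notes). The deposited values as submitted in tabular form hold the same intensity, with 100% of values within 1% of the scanner values. Flags for spots well above background, saturated or outlying are scored 0 or 1 in other deposited columns, per the file headers.

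Control spots (715) and outlier spots (3.32% to 8.07% per array) were left out of the 10360 non-control spots. Signals were divided by the 75th percentile of the array, since 56.0% of probes were detected on average, floored at 0.0682 (log2 -3.87), and averaged as log2 values over the 20 spots of each member probe. The brightest probe stood for each miRNA. Tested miRNAs had more spots well above background than not on 3 or 4 arrays of some group, which left 178 tested and 67 not tested. Group means of all 16 arrays were fitted with limma 3.58.1 (lmFit, eBayes) in R 4.3.3, where files were read with the data.table package, version 1.17.8. Tests were two-sided and Benjamini-Hochberg adjusted over 178 miRNAs, with 0.05 as the threshold. The fit was tested on simulated data. Figures used matplotlib 3.10.9 and summaries pandas 2.3.3 in Python 3.11.15.

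The rule for named miRNAs took all 7 members, opposite arms, miRNAs within 10 kb of a member, miR-103 and miR-107, the 5 miRNAs most like the family mean, and up to 3 miRNAs of each cell-cycle list. The members, lists and tests were chosen with earlier results of these data known. Markers of the early embryo, brain, muscle, liver and skin were listed to check the sample: all 12 were detected, and the early-embryo miR-430 list changed by -3.41 (median) with age in vehicle embryos.

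The labels do not say whether replicates are separate clutches, and p-values therefore cover only the spread among these samples, which may be technical. The 2 most alike arrays had r = 0.9989, and the lowest r within a group was 0.9712. Residuals of vehicle and VPA arrays with the same replicate number correlated with r = 0.289, 0.282, 0.276 and 0.248 in the 96 hpf embryos. In the 48 hpf embryos r was 0.097, -0.179, 0.324 and -0.151. The numbers, which also follow the row of the slide, were thus read as a sign of pairing at 96 hpf only. The reported fits did not use this pairing. With the replicate number as a block at both ages, 5 members passed at 96 hpf in place of 6, and 5 at 48 hpf as before. Of all 178 miRNAs, 25 were then higher at 96 hpf in place of 26, and 28 at 48 hpf in place of 29. Alternatives were normexp (offset 50), other scalings, other filters and probe choices, no floor, another variance model, a replicate block, fits on 8 arrays, and leaving out arrays. Leaving out the brighter or the dimmer VPA arrays, the second-brightest probe, and a median of 0 per array were added after seeing the data. With 4 arrays a group, the array number sets the precision.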

Additional observations from a re-analysis of the deposited data

Results flagged for a closer look

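Among 28 sets of 4 arrays (7 members in 4 groups), 2 held an array far from the rest by Dixon's ratio, the gap to the nearest array over the range of the group. Chance alone sets apart about 1 set in 20. The log2 level of miR-15a on vehicle replicate 3 at 48 hpf was -1.68, against -1.50 to -1.48 on the other vehicle arrays (ratio 0.877). That of miR-15b on VPA replicate 4 at 48 hpf, the brighter array of its group, was 1.06, against 0.93 to 0.95 on the other VPA arrays (ratio 0.863).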

How the results depend on the processing

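With each of 16 arrays left out in turn, the members called were 3 to 5 at 48 hpf, 4 to 6 at 96 hpf, 0 to 0 for the difference of effects, and 7 to 7 for age in each treatment. Leaving out vehicle replicate 3, VPA replicate 2 or VPA replicate 4 of 48 hpf gave 3 at 48 hpf. Of all 178 miRNAs, 15, 20 and 25 were then higher in place of 29. Leaving out vehicle replicate 3 of 96 hpf gave 4 at 96 hpf, with 14 of all higher in place of 26. The change of miR-15a at 96 hpf ran from -0.02, without vehicle replicate 2, to 0.06, and the difference of effects of miR-16c from -0.01 to 0.05. Of the 539 other results of members, 445 kept direction and side of the threshold, 59 lost the call, 1 gained it and 34 turned direction, and the cause was not tested.

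At 48 hpf, 3 members were called with the percentile over probes detected on all arrays, where all miRNAs split into 12 higher and 32 lower in place of 29 and 23. It was 3 with the scanner software's gene signal (24 of all higher) and 3 without the brighter VPA arrays (45 of all higher). It was 2 with normexp (2 of all higher), 2 with the median at 0 (9 higher and 26 lower of all), and 0 unscaled. At 96 hpf it was 0 unscaled and 0 with normexp. It was 4 in place of 6 with the percentile over probes detected on all arrays and on that age's arrays only. It was also 4 without the brighter VPA arrays and with the second-brightest probe. In these 4 settings 20, 14, 31 and 12 of all miRNAs were higher in place of 26. Quantile normalization split all calls into 34 higher and 25 lower in place of 26 and 33. For age, 0 members were lower unscaled in either treatment, beside 4 of all miRNAs in each. Higher were 5 members in VPA and 0 in vehicle embryos, beside 131 and 74 of all. Lower were 4 members in VPA with normexp and 4 in vehicle embryos with the gene signal, beside 62 and 46 of all. In VPA embryos it was 5 with each of the gene signal, quantile normalization and the percentile over probes detected on all arrays, beside 49, 60 and 54 of all. In vehicle embryos it was 5 with normexp, beside 46 of all. Unscaled, limma called 0 of 178 miRNAs for VPA at either age, and 8 and 0 had an unadjusted p under 0.05, in place of 74 and 76. Of all miRNAs, 52 were called at 48 hpf, and 5 with normexp, 81 without the brighter and 33 without the dimmer VPA arrays. At 96 hpf 59 were called, and 0 with normexp, 34 without the floor, 31 with detection required on all arrays, 36 on that age's arrays only and 33 with the second-brightest probe.

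Unscaled, the VPA change at 48 hpf turned to -0.21 (miR-15a), -0.35 (miR-15b), -0.22 (miR-16b), -0.29 (miR-16c), -0.36 (miR-457a) and -0.10 (miR-457b), with the median of all miRNAs at -0.31. The age change turned, in VPA and vehicle, to 1.07 and 0.62 (miR-15a), 0.78 and 0.27 (miR-16a), 1.41 and 0.65 (miR-16b), 1.34 and 0.66 (miR-16c), 1.11 and 0.28 (miR-457a), 1.24 and 0.50 (miR-457b), and 0.72 in VPA (miR-15b). The difference of effects turned to 0.46 (miR-15a) and 0.51 (miR-16a). With normexp, changes turned to -0.14 (miR-15a, 96 hpf), -0.07, -0.06 and -0.12 (miR-15b, miR-16c and miR-457a, 48 hpf), 0.01 (miR-16b, age in VPA) and -0.01 (miR-457b, difference of effects). Others were -0.01 for miR-15b at 48 hpf (quantile), 0.03 for miR-16b with age in VPA (gene signal), 0 for miR-15a at 96 hpf (mean of all probes) and -0.02 (without the brighter arrays, and with the second probe). The difference of effects was -0.02 for miR-15b (second probe) and -0.07 for miR-16c (without the dimmer arrays). Among the members the replicate block changed no call but that of miR-457a at 96 hpf (0.24, adjusted p = 0.0662). It gave 5 members at each age, beside 28 of all miRNAs higher at 48 hpf and 25 at 96 hpf. The block was not run for age, since it lies within the slide.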
